A study of Mus musculus with 2 samples.

Results

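The 9 genes described here belong to the MHC class II presentation machinery of the mouse and were selected by symbol from the 23284 genes of the data set. They were the classical chain genes H2-Aa, H2-Ab1 and H2-Eb1, the invariant chain gene Cd74, the peptide-loading genes H2-DMa, H2-DMb1 and H2-DMb2, the DO chain gene H2-Oa and the coactivator gene Ciita, and every one of them was present in both libraries. The study asked how gene expression in the leukemic stem cells (LSCs) of mice with chronic myeloid leukemia (CML) differs without the adapter protein STAP-1. Each genotype, WT and STAP-1 KO, is represented by 1 RNA-seq library, so no difference between genotypes has a replicate check and none was tested.

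In both groups, LSK cells (lineage-negative, Sca-1-positive, c-Kit-positive bone marrow cells) of C57BL/6J (Ly5.2) donors were transduced with a pMSCV-ires-GFP retrovirus carrying human p210 BCR-ABL and were transplanted together with C57BL/6SJL (Ly5.1) bone marrow cells into lethally irradiated C57BL/6SJL recipients. Mice of 8 to 14 weeks were used. GFP+ CD45.2+ LSK cells were sorted at day 11 after the first transplantation. The donors were WT mice or mice with a targeted disruption of the Stap1 locus, and whether cells of several animals were pooled is not stated in the sources used here. The lineage antibodies included those against CD3e, CD8, CD11b, B220, Gr-1 and Ter119 and none against CD11c or MHC class II, so cells carrying class II were not removed by the sort as such.

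MHC class II molecules are pairs of an alpha and a beta chain that present peptides from endocytosed proteins to CD4+ T cells. The invariant chain, the product of Cd74, occupies the binding groove of new pairs and guides them to endosomes, where proteases cut it down, the DM heterodimer exchanges its last fragment for peptide, and the DO heterodimer inhibits DM. Dendritic cells, B cells and macrophages are the professional class II presenting cells, and class II is also found on a part of hematopoietic stem and progenitor cells. CIITA does not bind DNA itself but is recruited by RFX, CREB and NF-Y proteins on the X and Y boxes of class II promoters, and its level largely sets class II transcription. C57BL/6 mice do not make the H2-E alpha chain, so the H2-Eb1 product has no classical partner in them.

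The promoter sequences are shown because the X and Y boxes are the elements through which CIITA acts on these genes. Among the members, 6 have an entry in the RefSeq promoter set used (GRCm38.p6, from 250 bases before to 50 bases after each transcript start), and a core of the X box, GCAAC, followed after 18 to 38 bases by the core of the Y box, ATTGG, was searched on both strands. H2-Aa, H2-Eb1 and H2-Oa, 3 of these 6 members, held both cores in this order, as did 342 of all 32851 promoters (1.04%). ATTGG alone was found in 37.4% and GCAAC alone in 35.2% of all promoters. H2-Ob, the beta chain partner of H2-Oa and no member, is shown for comparison. Each sequence is 65 bases long, runs 5′ to 3′ and ends with ATTGG, and the capitals mark the matches.
H2-Aa (chr17:34287867-34287931, minus strand): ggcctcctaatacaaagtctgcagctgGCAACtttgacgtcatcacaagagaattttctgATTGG
H2-Eb1 (chr17:34305748-34305812, plus strand): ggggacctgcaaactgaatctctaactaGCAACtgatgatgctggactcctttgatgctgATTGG
H2-Oa (chr17:34092276-34092340, plus strand): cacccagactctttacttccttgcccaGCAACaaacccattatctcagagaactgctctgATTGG
H2-Ob (chr17:34238788-34238852, plus strand): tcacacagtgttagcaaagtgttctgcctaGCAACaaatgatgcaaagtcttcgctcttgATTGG
H2-DMb2 (chr17:34145099-34145163, plus strand): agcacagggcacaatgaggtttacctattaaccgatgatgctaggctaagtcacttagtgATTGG
The stretch between the cores was 28 bases in H2-Aa, 27 in H2-Eb1, 28 in H2-Oa and 25 in H2-Ob. The ATTGG match began 48, 59, 43 and 57 bases before the RefSeq start in that order. H2-DMb2 held ATTGG, which began 90 bases before its start, without GCAAC at the set distance. H2-DMb1 likewise held ATTGG, 61 bases before its RefSeq start, and no such GCAAC, but GENCODE M21 places 63 of the 65 bases of that stretch in an exon, so it is not printed. Neither of the 2 RefSeq promoters of H2-DMa held both cores. H2-Ab1, Cd74 and Ciita are named only. A match is a description of letters and no measure of binding.

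Values are FPKM, read fragments scaled to transcript length and to the mapped fragments of the library, as deposited. A gene was counted as lower or higher in STAP-1 KO LSCs when the ratio of the libraries was at least 2-fold with at least 0.1 FPKM in both. Log2 ratios are STAP-1 KO over WT on the log2(FPKM + 0.1) scale. Effective depths, read from the steps between low values, were 7490000 reads in WT and 10490000 reads in STAP-1 KO LSCs, at which 3 reads on a transcript of 1400 bases are worth 0.336 and 0.241 FPKM. The 95% intervals given below come from reads estimated at these depths, without a pseudocount, and cover counting error only. Stap1 itself had 62.0 FPKM in WT and 0.309 FPKM in STAP-1 KO LSCs. The genes of the sorted antigens were expressed in both libraries. Kit had 468 FPKM in WT and 30.1 FPKM in STAP-1 KO LSCs, Ly6a (Sca-1) 285 and 106 FPKM, and the progenitor marker Cd34 281 and 194 FPKM. Kit (15.6-fold) and Ly6a (2.70-fold) were thus lower, and Kit is also one of the mast cell and basophil markers. Of the 10 mast cell and basophil markers, 9 were lower in STAP-1 KO LSCs, and their summed level was 51500 FPKM (7.93% of all FPKM) in WT and 5298 FPKM (0.877%) in STAP-1 KO LSCs.

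Of the 9 MHC class II genes, 7 were lower and 0 were higher in STAP-1 KO LSCs, and H2-DMa and H2-DMb2 did not reach the cut-off. Among all 12507 genes with at least 0.1 FPKM in both libraries, 22.9% were lower and 12.3% were higher. The same shares are the background for the counts of every gene list here. The median log2 ratio of the 9 genes was -1.77, against -0.04 over the 10974 genes that averaged at least 1 FPKM. Their summed level was 2107 FPKM in WT and 609.5 FPKM in STAP-1 KO LSCs, which is 3.46-fold lower. In a bulk sample, fewer cells that express these genes and less RNA of them per cell cannot be told apart.

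The ratio of these libraries varied with transcript length. The longest coding transcripts of the members other than Ciita are 1088 to 2005 bases long, and genes in that range had a median log2 ratio of 0.42 (2202 genes), with 13.9% of 2507 genes lower. For Ciita, with 6007 bases, the 570 genes within 500 bases of its length had a median of -0.68. When all genes were corrected for length and GC content, the 9 members had a median log2 ratio of -2.18. The correction thus moved the short class II genes further down and moved Ciita up, from -3.04 to -2.23.

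**Figure D1:**
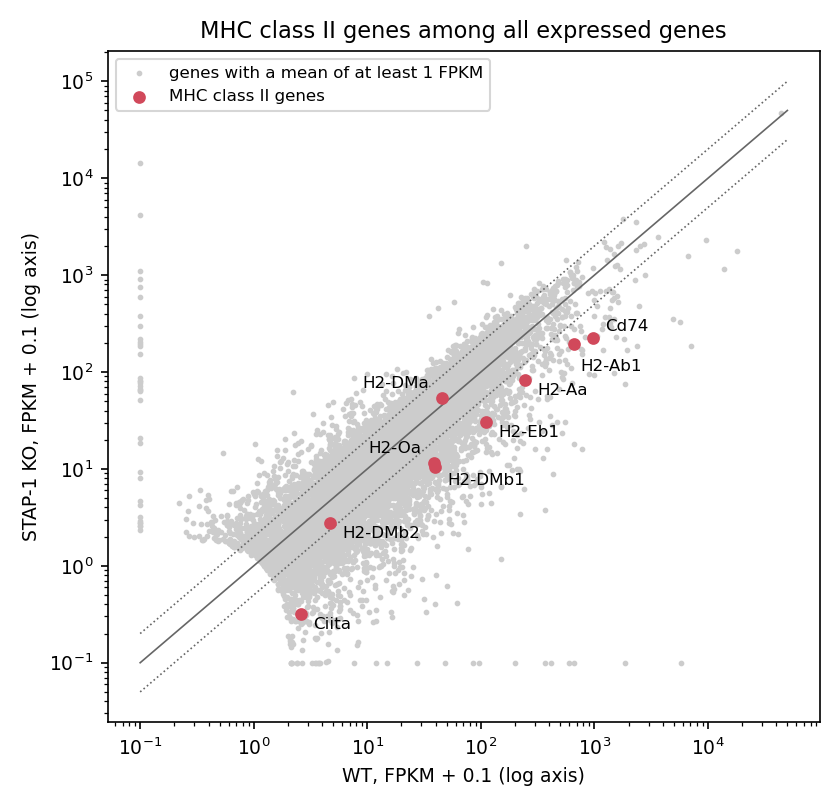
FPKM + 0.1 in WT (horizontal log axis) against STAP-1 KO CML LSCs (vertical log axis), 1 library each. Grey points are genes averaging at least 1 FPKM, red points the 9 MHC class II genes, the solid line equal values and the dotted lines a 2-fold difference; 7 of the 9 lie beyond the lower dotted line, H2-DMb2 lies between the lines and H2-DMa lies just above equality.

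Ciita, which encodes the coactivator of class II transcription, had the lowest level of the 9 genes in both libraries and, as deposited, the lowest ratio. It had 2.49 FPKM in WT and 0.215 FPKM in STAP-1 KO LSCs, an 11.6-fold lower level. The log2 ratio was -3.04 with the pseudocount of 0.1 FPKM. Without a pseudocount it was -3.53, to which the 95% interval of -4.49 to -2.70 belongs. The STAP-1 KO value rests on an estimated 13 reads and the WT value on 108 reads, so its size is the least precisely measured of the 7 lower genes. With a pseudocount of 1 FPKM its log2 ratio was -1.52, above those of the other 6 lower genes, and after the correction for length and GC content it was -2.23, above those of Cd74 (-2.35) and H2-DMb1 (-2.31), so its place as the lowest ratio depends on these settings. Ciita lies on the plus strand of chromosome 16 (GRCm38, from 10480059 to 10528418), and 329 of its 9535 annotated exonic bases are shared with Dexi on the opposite strand, of which 111 are in its longest coding transcript. The library kit does not mark the strand, and Dexi had 18.6 FPKM in WT and 13.3 FPKM in STAP-1 KO LSCs, so a part of the Ciita reads cannot be assigned with certainty.

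The classical chains were lower by similar factors. H2-Ab1, the beta chain of H2-A, had 659 FPKM in WT and 193 FPKM in STAP-1 KO LSCs, 3.42-fold lower (log2 ratio -1.77, 95% interval -1.85 to -1.70). H2-Aa, the alpha chain that pairs with it, had 245 and 81.8 FPKM, 2.99-fold lower (log2 ratio -1.58, 95% interval -1.70 to -1.46). H2-Eb1, the beta chain of H2-E, had 110.0 and 30.1 FPKM, 3.65-fold lower (log2 ratio -1.86, 95% interval -2.03 to -1.71). All 3 are on chromosome 17. Among all genes of a library, H2-Ab1 ranked at 89 in WT and 565 in STAP-1 KO LSCs, H2-Aa at 355 and 1562, and H2-Eb1 at 985 and 3591. Their summed level was 1014 FPKM in WT and 305 FPKM in STAP-1 KO LSCs.

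The proportions between these chains were similar in the 2 libraries. H2-Ab1 over H2-Aa was 2.69 in WT (95% interval 2.55 to 2.85) and 2.36 in STAP-1 KO LSCs (2.17 to 2.56), intervals that overlap narrowly. H2-Eb1 over H2-Ab1 was 0.167 (0.157 to 0.178) and 0.156 (0.141 to 0.173), and these intervals overlap. A ratio within a library does not depend on how the libraries were scaled.

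Cd74, the invariant chain, was the highest of the 9 genes in both libraries, at rank 62 in WT and 452 in STAP-1 KO LSCs. It had 963 FPKM in WT and 226 FPKM in STAP-1 KO LSCs, 4.26-fold lower (log2 ratio -2.09, 95% interval -2.15 to -2.03). Cd74 over the summed classical chains was 0.95 in WT (0.921 to 0.980) and 0.742 in STAP-1 KO LSCs (0.706 to 0.781). The invariant chain was thus lower by more than the chains it accompanies, and these intervals do not overlap. Cd74 over H2-Ab1, its neighbour in the order of levels, was 1.46 (1.41 to 1.51) and 1.17 (1.11 to 1.24).

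**Figure D2:**
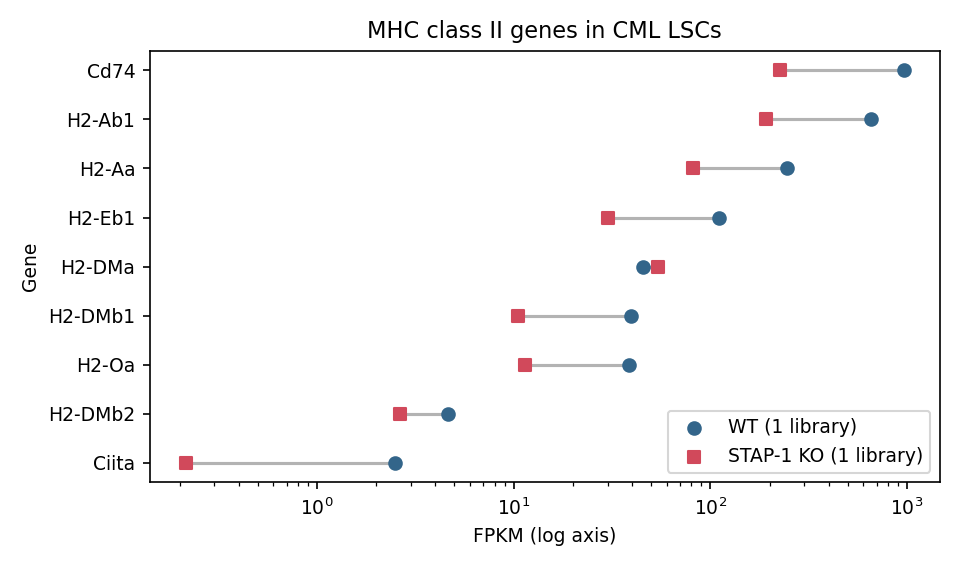
Level of each of the 9 MHC class II genes in FPKM (log axis) in WT (blue circles) and STAP-1 KO CML LSCs (red squares), 1 library each, ordered by the WT level, with a grey line joining the values of a gene. The square lies to the left of the circle for 8 genes and to the right for H2-DMa, with 45.4 FPKM in WT and 53.9 FPKM in STAP-1 KO LSCs.

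The 3 DM genes did not move together. H2-DMb1, one of the beta chains of DM, had 39.5 FPKM in WT and 10.5 FPKM in STAP-1 KO LSCs, 3.77-fold lower (log2 ratio -1.91, 95% interval -2.22 to -1.62). H2-DMa, the alpha chain of the same heterodimer, had 45.4 and 53.9 FPKM (log2 ratio 0.25, 95% interval 0.10 to 0.39). It was the member with the highest ratio and the single one above 0, and after the correction for length and GC content its log2 ratio was -0.03. The alpha over beta ratio, H2-DMa over H2-DMb1, was 1.15 in WT (1.01 to 1.31) and 5.14 in STAP-1 KO LSCs (4.28 to 6.21). In the order of levels, H2-DMa stood below H2-Eb1 in WT and above it in STAP-1 KO LSCs, with H2-Eb1 over H2-DMa at 2.42 (2.197 to 2.675) and 0.560 (0.500 to 0.625).

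H2-DMb2, the second beta chain gene, had 4.62 FPKM in WT and 2.64 FPKM in STAP-1 KO LSCs (log2 ratio -0.78, 95% interval -1.50 to -0.14), which is below the cut-off. After the correction for length and GC content its log2 ratio was -1.12, past the cut-off. It rests on an estimated 44 and 35 reads. H2-DMb1 and H2-DMb2 are near-identical copies: over 1219 aligned bases of their longest coding transcripts 94.6% were identical, and 254 of the 75-base windows of H2-DMb1 (19.1%) occur unchanged in H2-DMb2. Reads can therefore be split between these genes in a way that the FPKM values do not show. Summed, the beta chains had 44.2 FPKM in WT and 13.1 FPKM in STAP-1 KO LSCs, 3.37-fold lower, so the contrast with H2-DMa does not depend on that split. H2-DMa in turn shares 360 of its 3448 annotated exonic bases with Brd2 on the opposite strand, none of them in its longest coding transcript, and Brd2 had 51.3 and 30.3 FPKM.

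H2-Oa, the alpha chain of DO, had 38.5 FPKM in WT and 11.4 FPKM in STAP-1 KO LSCs, 3.39-fold lower (log2 ratio -1.75, 95% interval -2.11 to -1.43). H2-DMb1 and H2-Oa, neighbours in level, did not differ beyond counting error in either library, with a ratio of 1.03 in WT (0.871 to 1.21) and 0.922 in STAP-1 KO LSCs (0.708 to 1.21). The summed DM chains over H2-Oa were 2.32 (2.02 to 2.68) and 5.90 (4.82 to 7.28). This summed ratio was thus higher in STAP-1 KO LSCs, where H2-DMa made up most of the DM sum. The ratio of H2-DMb1 to H2-Oa did not rise. The sum adds alpha and beta chains and is no measure of the DM heterodimer. H2-Oa shares 321 of its 1407 annotated exonic bases with the antisense gene BC051537, which had 0.189 FPKM in WT and 0.0670 FPKM in STAP-1 KO LSCs.

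Among the class II chains outside the 9 genes, none passed the cut-off. H2-Ob, the beta chain of DO, had 3.52 FPKM in WT and 2.91 FPKM in STAP-1 KO LSCs (log2 ratio -0.27, 95% interval -0.78 to 0.22). H2-Oa over H2-Ob was 10.9 (8.30 to 14.6) and 3.90 (2.87 to 5.32), so the alpha chain of DO, like the beta chain of DM, was lower while its partner was not. H2-Eb2 was near the floor at 0.126 and 0.120 FPKM, and H2-Ea-ps, the H2-E alpha chain locus that is defective in C57BL/6 mice, was listed at 0 in both libraries. H2-Ob, below the cut-off, held both promoter cores, as did the lower genes H2-Aa, H2-Eb1 and H2-Oa.

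The class II region puts the members beside genes of another pathway. From H2-Oa to H2-Ea-ps it spans 252 kb of chromosome 17 (GRCm38, from 34092340 to 34344645) and holds 15 genes of the files, of which 10 are class II genes and 5 are not. Of these 5, 2 were higher and 0 were lower in STAP-1 KO LSCs, against 12.3% and 22.9% of all genes. After the correction for length and GC content the 2 past the cut-off were Psmb9 and Tap1 in place of Psmb9 and Psmb8. Psmb9 and Psmb8, immunoproteasome subunits that produce peptides for class I, had 71.2 and 229 FPKM in WT and 195 and 523 FPKM in STAP-1 KO LSCs. Tap1 (26.3 and 47.6 FPKM) and Tap2 (71.1 and 75.3 FPKM), which carry peptides into the endoplasmic reticulum, and Brd2, a chromatin reader, did not reach the cut-off. Lower class II genes stood on both sides of this block.

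**Figure D3:**
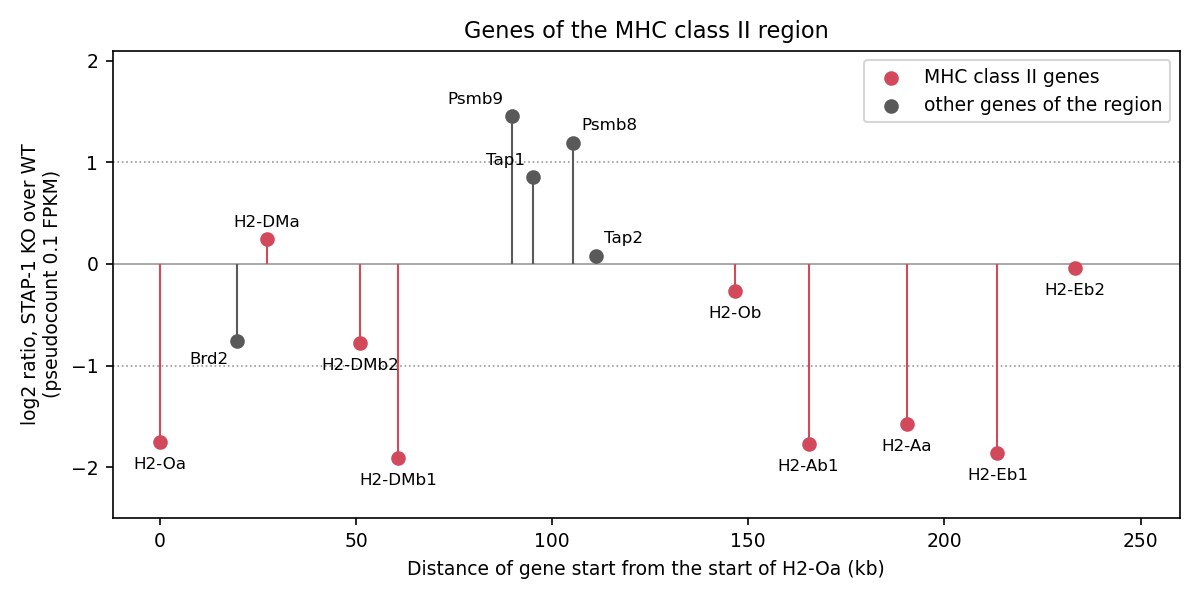
Log2 ratio of STAP-1 KO over WT (vertical axis, pseudocount 0.1 FPKM) for 14 genes of the MHC class II region against the distance of the gene start from the start of H2-Oa in kb; H2-Ea-ps, at 0 in both libraries, is left out. Red points are class II genes, grey points the other 5 genes and dotted lines a 2-fold difference; H2-Oa, H2-DMb1, H2-Ab1, H2-Aa and H2-Eb1 lie below the lower dotted line and Psmb9 and Psmb8 above the upper one.

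The genes for the proteins that recruit CIITA to DNA did not share the lower level of Ciita as a group. Of the 7 genes for RFX, NF-Y and CREB1, 0 were lower and 0 were higher, and their median log2 ratio was 0.02. Rfxank, a subunit of RFX, had 6.28 FPKM in WT and 3.30 FPKM in STAP-1 KO LSCs, 1.90-fold lower and short of the cut-off (log2 ratio -0.91). Nfyb, a subunit of NF-Y, had 29.1 FPKM in WT and a level 1.72-fold higher in STAP-1 KO LSCs. Rfxap, also of RFX, had 14.4 and 18.7 FPKM, and Nfyc, of NF-Y, 8.68 and 10.7 FPKM. Rfx5 was nearly level at 5.13 and 5.04 FPKM.

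Of the 12 genes listed as inducers and repressors of Ciita, 6 were lower and 1 was higher, against 22.9% and 12.3% of all genes. The median log2 ratio of the list was -0.54. Jak1 and Jak2, the kinases of the interferon-gamma receptor, had 181 and 48.2 FPKM in WT and 54.0 and 13.1 FPKM in STAP-1 KO LSCs. Ifngr2, a receptor chain, had 66.8 and 25.2 FPKM, and Socs1, an inhibitor of the same signal, had 78.2 and 24.1 FPKM. Irf8 and Prdm1 complete the lower genes and are named for that reason only, after their values were seen. Prdm1 was not past the cut-off after the correction for length and GC content (-0.88), nor counted with a floor of 1 FPKM, and 5 lower genes were left under either setting. The higher gene was Irf1 (29.4 and 59.6 FPKM), an interferon-induced factor that binds one of the Ciita promoters, with a ratio of 2.03 that is just past the cut-off and a log2 ratio of 0.84, not past it, after the correction for length and GC content. Ifngr1, the other receptor chain, had 80.6 and 119 FPKM, below the cut-off. The list did not move as a whole.

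The genes for cutting antigen and invariant chain were lower in part. Of 8 genes, 5 were lower and 0 were higher, against 22.9% and 12.3% of all genes, and the median log2 ratio of the 8 was -1.10. Ctss, the cathepsin that trims the invariant chain in most presenting cells, had 67.9 FPKM in WT and 18.2 FPKM in STAP-1 KO LSCs. Ctsd, an aspartic protease of lysosomes in general, had 2453 and 480 FPKM, Ctsb, a cysteine protease of lysosomes, 149 and 70.7 FPKM, and Lgmn, an asparaginyl endopeptidase, 4.64 and 1.55 FPKM. The fifth was Ctsh, with 9.90 and 4.46 FPKM. After the correction for length and GC content 4 of the 5 remained past the cut-off, and Ctsb did not (-0.56). Below the cut-off were Ctsl (33.3 and 23.4 FPKM), Ifi30 (42.6 and 33.1 FPKM), the thiol reductase of this compartment, and Sppl2a (22.8 and 18.3 FPKM), which cleaves the last fragment of the invariant chain in the membrane. Most of these enzymes also serve lysosomes of cells without class II.

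All 3 genes of class II surface turnover were lower, against 22.9% of all genes. March1, a ubiquitin ligase that removes class II from the cell surface, had 2.61 FPKM in WT and 0.460 FPKM in STAP-1 KO LSCs. March8, a related ligase, had 31.9 and 9.19 FPKM, and Cd83, which opposes March1, had 6.13 and 1.97 FPKM. With a floor of 1 FPKM in both libraries March1 was not counted and 2 were lower.

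Of the 12 genes of class I presentation, 0 were lower and 3 were higher, against 22.9% and 12.3% of all genes. The other 9 were below the cut-off, and the median log2 ratio of the list was 0.46. The higher genes were the immunoproteasome subunits Psmb8, Psmb9 and Psmb10 (55.1 and 123 FPKM). After the correction for length and GC content Psmb9 (1.04) and Tap1 (1.08) were past the cut-off, and Psmb8 (0.94) and Psmb10 (0.85) were not. H2-K1, a classical class I heavy chain, had 473 FPKM in WT and 871 FPKM in STAP-1 KO LSCs, and H2-D1, the other heavy chain, had 1505 and 1227 FPKM, both below the cut-off. B2m, the shared light chain, had 2300 and 3537 FPKM, and Tapbp, which loads peptide on class I, had 171 and 111 FPKM, also below it. Nlrc5, the class I counterpart of Ciita, had 2.00 and 1.38 FPKM and was also below the cut-off. The class I median was 0.52 after that correction.

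**Figure D4:**
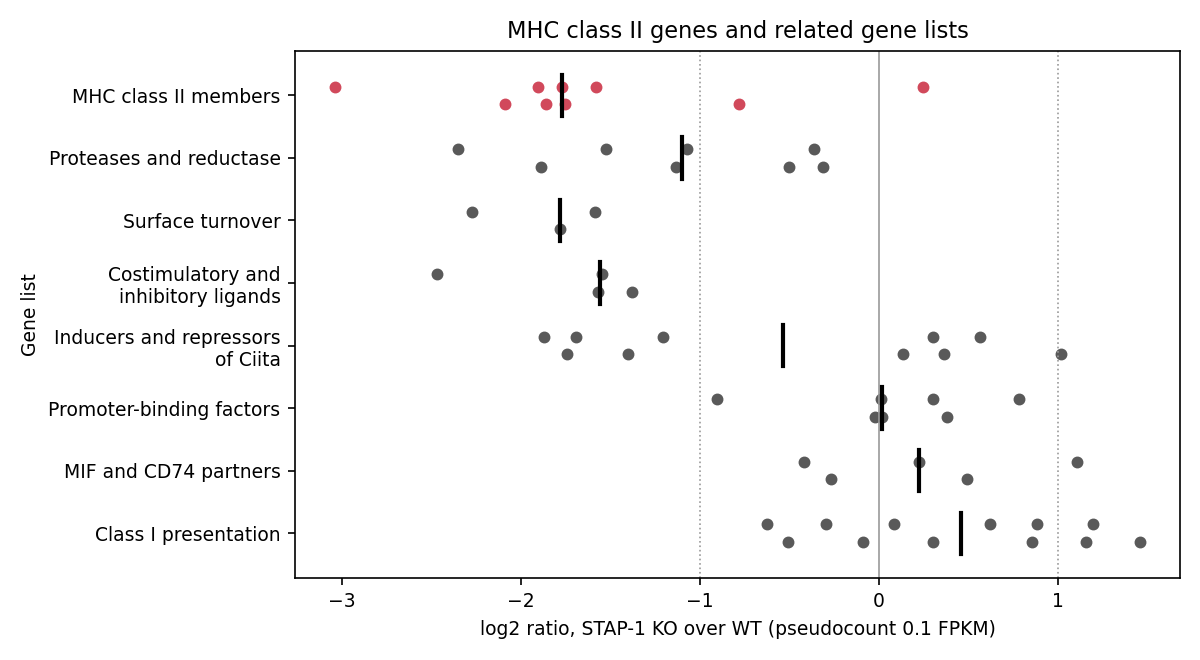
Log2 ratio of STAP-1 KO over WT (horizontal axis, pseudocount 0.1 FPKM) of each gene averaging at least 1 FPKM in the 9 MHC class II genes (red) and 7 related lists (grey), with a black bar at each median and dotted lines at a 2-fold difference. The medians run from -1.78 for surface turnover and -1.77 for the class II genes, over -1.10 for proteases and reductase and 0.02 for the promoter-binding factors, to 0.46 for class I presentation.

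Markers of cells that carry class II were examined beside these results. Of 10 markers of conventional dendritic cells, 6 were lower and 0 were higher in STAP-1 KO LSCs, against 22.9% and 12.3% of all genes. The median log2 ratio of these markers was -1.57. Their summed level was 65.0 FPKM in WT and 19.1 FPKM in STAP-1 KO LSCs, and none was at 0 in both libraries. Clec10a, a lectin of dendritic cells and macrophages, had 31.3 and 4.52 FPKM, Zbtb46, a transcription factor of conventional dendritic cells, 7.15 and 2.66 FPKM, and Flt3, a cytokine receptor that progenitors also carry, 7.62 and 6.54 FPKM. Itgax, which encodes CD11c, had 2.97 and 0.375 FPKM. Clec10a held much of the sum, and without it the other 9 markers had 33.7 and 14.5 FPKM, 2.32-fold lower. With a floor of 1 FPKM in both libraries 3 markers were lower, and after the correction for length and GC content 5 were, without Zbtb46 (-0.77). Below the cut-off were Flt3, Ccr7 and Fscn1, and Cd209a was below the floor. The part of these markers in the class II result was not tested.

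**Figure D5:**
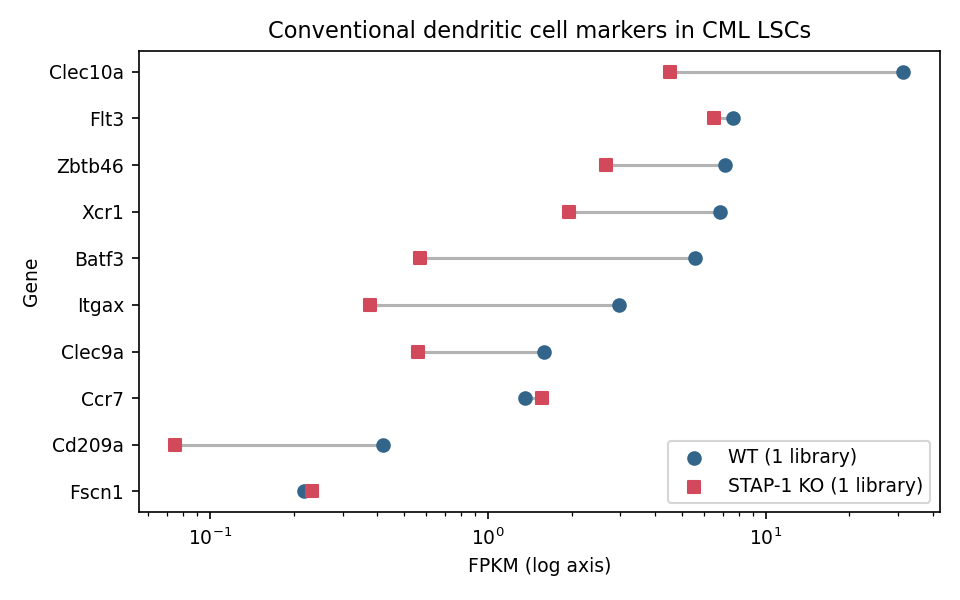
Level of the 10 conventional dendritic cell markers in FPKM (log axis) in WT (blue circles) and STAP-1 KO CML LSCs (red squares), 1 library each, ordered by the WT level, with a grey line joining the values of a gene. Most squares lie to the left of the circles, as for Clec10a with 31.3 and 4.52 FPKM, while Ccr7 and Fscn1 lie slightly to the right.

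Markers of other class II presenting cells did not share one direction. Of 12 markers of monocytes and macrophages, 4 were lower and 2 were higher, against 22.9% and 12.3% of all genes. The sums of these 12 markers were 199 and 152 FPKM. Cd68, a lysosomal protein, had 95.7 FPKM in WT and 26.3 FPKM in STAP-1 KO LSCs and Ccr2, a chemokine receptor, 41.8 and 10.3 FPKM, whereas Ly6c2, a surface antigen of monocytes, had 20.5 and 98.0 FPKM. Of 11 B lineage markers, 1 was lower and 1 was higher, and their sums were 9.82 and 21.3 FPKM. Pax5 and Ebf1, transcription factors that define the B lineage, and Fcer2a, a receptor of mature B cells, were listed at 0 in both libraries. Of the B lineage markers, Cd79b, a chain of the B cell receptor complex, had 3.10 and 17.8 FPKM and Bank1, an adaptor of B cells, 5.71 and 2.14 FPKM. Of 7 plasmacytoid dendritic cell markers, 0 were lower and 3 were higher, while Pacsin1, with 1.04 FPKM in WT, was listed at 0 in STAP-1 KO LSCs and so entered neither count. The 3 higher markers were those averaging at least 1 FPKM, with a median log2 ratio of 1.23. All 7 markers summed to 85.5 and 270 FPKM, most of it the interferon-inducible Bst2 (72.0 and 244 FPKM), and Spib was listed at 0 in both. The mast cell and basophil markers given above had a median log2 ratio of -3.26. Leaving them out of the total, the 9 class II genes made up 0.353% of the FPKM in WT and 0.102% in STAP-1 KO LSCs, against 0.325% and 0.101% with them.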

How the data were processed

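RNA of sorted cells was amplified with the SMART-Seq v4 kit, made into libraries with Nextera XT, which does not keep the strand, and read as 75-base single reads. The authors mapped them to mm10 and deposited 1 FPKM value per gene and library, made with Cuffnorm. The submitters' processing notes name TopHat2 2.0.13, Bowtie2 2.2.3, SAMtools 0.1.19 and Cufflinks 2.2.1. The gene annotation and the number of reads are not given in the sources used here.

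Ratios, sums, medians and counts were derived with pandas 2.3.3, numpy 2.4.6 and scipy 1.17.1 under Python 3.11.15. With 1 library per genotype no p-value was computed. Of the symbols, 20911 matched GENCODE M21 (GRCm38) as written and 1892 through an older symbol, while 481 did not match. The depth is the one at which the largest number of low values (under 0.5 FPKM, genes with 1 transcript) lay within 0.01 of whole reads, 33.9% of 437 values in WT and 34.0% of 503 in STAP-1 KO LSCs; the other low values did not, so estimated reads and intervals are approximate. Estimated reads are FPKM times this depth times the longest coding transcript less 208 (WT) or 212 bases. Length and GC content were corrected by running medians over 20 quantile bins each. Medians are over genes averaging at least 1 FPKM. The steps were tested on simulated data.

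The members and lists were chosen with earlier results of these data known. Named were all members, Stap1, the genes of the class II region, the 4 genes of each pathway list that moved most at a pseudocount of 1 FPKM among those averaging at least 1 FPKM, and the 3 highest markers of each cell type with those at 0 in both libraries. Further genes are named to complete small counts or for their role, after their values were seen. Alternatives changed the floor, cut-off, pseudocount, scaling and length correction. A background of like length, shares without mast cell markers, ratios without a pseudocount, dendritic cell sums without Clec10a and list counts corrected for length were added after seeing the data. Some members of the gene lists are counted but not reported here by name.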

Additional observations from a re-analysis of the deposited data

How the results depend on the processing

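Between 6 and 8 of the 9 genes were lower and 0 were higher under every alternative floor, scaling, correction and cut-off tried, except that a 4-fold cut-off left 2 lower (Cd74 and Ciita). Correcting for length and GC content gave a median log2 ratio of -2.18 for the members and turned H2-DMa to -0.034. The log2 ratio of the summed FPKM, -1.79 as deposited, was -1.69 as a share of all FPKM and -1.75 with upper-quartile scaling. With a floor of 1 FPKM, 3 conventional dendritic cell markers were lower in place of 6, and Ciita was no longer counted. Scalings moved the median of all genes by at most 0.04. No paired analysis was possible because there was 1 library per genotype. Genotype cannot be told apart from differences between animals, sorts or library preparations, and at 1400 bases of transcript a WT level of 0.336 FPKM rests on 3 reads.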

Other observations

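The ligands that accompany class II on presenting cells were lower as well. All 6 costimulatory and inhibitory ligands were lower in STAP-1 KO LSCs, against 22.9% of all genes. The median log2 ratio was -1.56 over the 4 that averaged at least 1 FPKM. With a floor of 1 FPKM in both libraries these 4 were lower, and Cd80 and Cd40, which rest on 18 or fewer estimated reads per library, were not counted. Cd86, which engages CD28 on T cells, had 8.24 FPKM in WT and 2.75 FPKM in STAP-1 KO LSCs, and Icosl, the ligand of ICOS, had 6.35 and 2.07 FPKM. Cd274 (PD-L1) had 21.2 and 8.10 FPKM and Pdcd1lg2 (PD-L2) was 5.80-fold lower, at 1.73 FPKM in STAP-1 KO LSCs, so ligands that activate and ligands that inhibit T cells were lower alike.

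Cd74 also serves as the surface receptor of the cytokine MIF. Of the 5 genes of that list, Mif was higher, with 208 FPKM in WT and 447 FPKM in STAP-1 KO LSCs, while its receptor Cd74 was lower. After the correction for length and GC content the log2 ratio of Mif was 0.91, below the cut-off. Ddt, a homologue of Mif, had 33.3 and 46.7 FPKM, and the co-receptors Cd44 (31.9 and 26.4 FPKM), Cxcr2 (1.88 and 1.38 FPKM) and Cxcr4 (7.47 and 8.74 FPKM) did not reach the cut-off.

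Of 6 T cell markers, 1 was lower and 3 were higher, against 22.9% and 12.3% of all genes. The sums of these markers were 15.7 FPKM in WT and 49.3 FPKM in STAP-1 KO LSCs, most of it Lck (11.8 and 41.9 FPKM). With a floor of 1 FPKM in both libraries 0 were lower and 2 were higher, the other 2 calls resting on estimated reads of 14 or fewer per library. After the correction for length and GC content 1 was lower and 2 were higher, and Cd3g (0.75) was no longer past the cut-off. Of the antigens used to remove lineage cells, Itgam, which encodes CD11b, had 1.82 and 1.56 FPKM.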
